A study of Homo sapiens with 4 samples.

Results

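Solute carriers are the membrane proteins that move amino acids, sugars, ions, metals, nucleotides and organic acids across the plasma membrane and the membranes of mitochondria, Golgi and lysosomes. The 68 genes described here are the protein-coding genes of the authors' table with a solute carrier symbol (SLC, a family number, the letter A and a member number) and at least 1 FPKM in at least 1 of the input libraries. FPKM is a count of fragments scaled to the length of the gene and the size of the library. They were 68 of 24483 genes in the table and 68 of 246 protein-coding genes with such a symbol. Another 7 solute carriers were left out by name, and 171 lay under the FPKM minimum in both inputs. The genes were chosen by their FPKM in the inputs, so those levels are a description. Of the 68, 51 passed in both inputs, 15 in the vehicle input alone and 2 in the lactate input alone. A gene that passed in 1 input alone was chosen for being higher there, so its ratio between the inputs, and the difference of enrichments that holds this ratio, are only described. Just inside the minimum stood SLC6A8 and SLC39A11, each with 1.01 FPKM in its higher input, and SLC2A13 with 1.04. Just outside stood SLC37A4 with 0.993 FPKM, SLC25A51 with 0.985 and SLC38A9 with 0.977. The symbol pattern passes over subfamilies B to G of SLC35. Of those, 10 genes reached the minimum, and SLC35F2 with 38.4 FPKM in the vehicle input would have been second by level.

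The cells were PANC-1, an established human pancreatic ductal adenocarcinoma line, labelled wild-type and grown with 10% serum and 1% antibiotics. They received 30 mM sodium lactate or ddH2O as vehicle for 24 h. NSUN2, an enzyme that methylates cytosine in RNA, was immunoprecipitated from the lysate with an antibody for 4 h, and the RNA that came down (IP) was sequenced beside input RNA. Each treatment gave an input and an IP, which makes 4 groups of 1 library. No value below therefore has a replicate error, and no test was made between groups. No library from a control antibody was analysed here, so a higher level in an IP cannot separate NSUN2 binding from RNA carried along in the step.

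Transporters of the SLC families mostly work as uniporters, symporters or exchangers, driven by gradients of the solute itself, of sodium or of protons. In tumour cells of the pancreas they are known for the uptake of glutamine, essential amino acids and glucose, and for holding cytosolic pH. Most members of SLC25 span the inner mitochondrial membrane, and several members of SLC35 carry nucleotide sugars into the Golgi.

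Library totals recovered from the FPKM values were 17626197 reads for the input and 13620414 for the IP of vehicle cells, and 11175432 and 15189967 for those of lactate cells. Genes of the mitochondrial genome took 66.0%, 69.1%, 77.0% and 85.8% of those reads in the same order. The 68 genes held 36007 reads in the input and 38730 in the IP of vehicle cells, and 15623 and 21349 in those of lactate cells. Their share of the reads outside mitochondrial genes was 0.601% in the vehicle input and 0.607% in the lactate input, against 0.921% in the vehicle IP and 0.991% in the lactate IP. Because the mitochondrial share differs, every ratio below is given relative to the median gene of the comparison. That median was taken over the 5562 protein-coding genes with at least 1 FPKM in an input, the 68 included, and these 5562 are the background for all counts. The part of the mitochondrial share in any result was not tested beyond this centring. Of 7 epithelial and ductal markers, 5 reached 1 FPKM in an input, with KRT18 at 116 FPKM and KRT8 at 28.9 FPKM in the vehicle input, while CDH1 stood at 0.121. The endothelial (2 of 3 listed), immune (2 of 4) and neuronal (2 of 4) markers with values summed to at most 0.275 FPKM per group in any library. VWF, PTPRC and TUBB3 were at 0 in both inputs. The fibroblast markers COL1A1 and COL3A1 stood at 1.89 and 1.11 FPKM in the vehicle input. None of the 4 acinar and 3 endocrine markers listed was among the authors' genes, so they have no value here.

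RefSeq promoter windows on GRCh38.p14 were matched for 61 of the 68 genes. They are shown for the pair with the highest and the pair with the lowest ratio of FPKM + 1 in the vehicle IP over input, among genes with a single window, because that contrast is the widest among the 68 genes with such a window. Each line gives the 100 bases before the start of transcription, 5′ to 3′ on the strand of the gene. Capitals mark GC boxes, the letters GGGCGG or their reverse complement CCGCCC.
SLC12A7 (chr5:1112064-1112163, minus strand): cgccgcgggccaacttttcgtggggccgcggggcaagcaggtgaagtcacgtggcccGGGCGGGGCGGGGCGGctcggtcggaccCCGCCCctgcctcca
SLC7A5 (chr16:87869508-87869607, minus strand): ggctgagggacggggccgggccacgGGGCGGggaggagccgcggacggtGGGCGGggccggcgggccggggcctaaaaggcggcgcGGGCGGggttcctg
SLC25A43 (chrX:119399236-119399335, plus strand): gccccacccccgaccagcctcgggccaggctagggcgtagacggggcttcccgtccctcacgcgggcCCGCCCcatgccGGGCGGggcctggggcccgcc
SLC66A3 (chr2:11155367-11155466, plus strand): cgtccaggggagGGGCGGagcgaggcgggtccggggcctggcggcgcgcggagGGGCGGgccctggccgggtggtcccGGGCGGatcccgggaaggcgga

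Counting overlapping matches, the stretch of SLC12A7 held 4 such boxes, that of SLC7A5 held 3, that of SLC25A43 held 2 and that of SLC66A3 held 3. Over the full 250 bases before the start, 83.6% of the solute carriers with a window had a GC box, against 75.6% of the background genes and 46.2% of all genes with a window. The promoters of the genes 2-fold higher in the vehicle IP had a median G+C content of 74.8% (15 genes), and those of the genes 2-fold lower had 66.2% (8 genes). Over the background the same medians were 66.0% and 63.6%. These letters describe the windows alone.

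At the level of the inputs a few genes stood far above the rest. SLC25A5, the ADP/ATP translocase of the inner mitochondrial membrane that dividing cells use most, stood at 87.7 FPKM in the input of vehicle cells and 72.0 in their IP, then at 49.1 and 24.8 in those of lactate cells. SLC38A1, a sodium-coupled carrier of glutamine, followed with 32.3, 56.7, 16.1 and 23.7 FPKM in that order. The sugar carrier SLC50A1 had 22.7, 23.4, 16.7 and 14.5 FPKM, and the sulfate carrier SLC26A2 had 21.9, 25.4, 15.2 and 11.5. These 4 genes were the highest in the vehicle input, and the 4 highest genes of each library held 42.9%, 36.4%, 38.2% and 32.1% of its summed solute carrier FPKM, again in that order. The median gene of the 68 had 2.76 FPKM in the vehicle input and 1.97 in the lactate input.

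**Figure D1:**
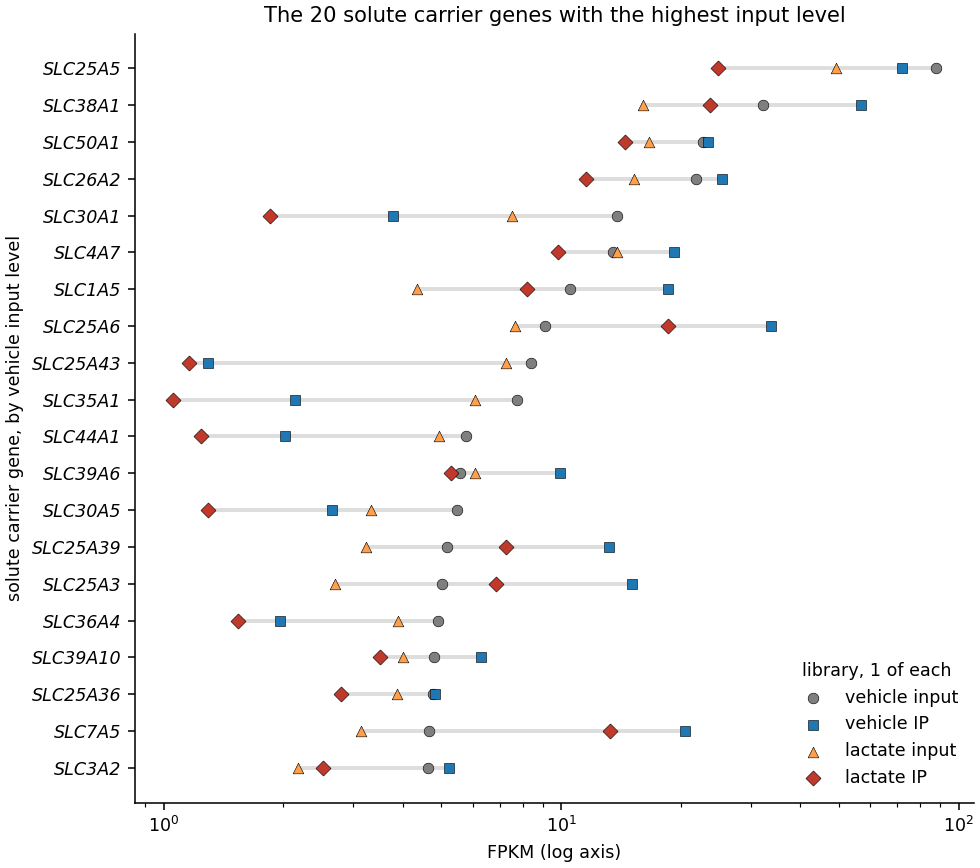
FPKM on a log axis for the 20 solute carrier genes with the highest vehicle input level, with 1 symbol per library and a grey line from the lowest to the highest of the 4. SLC25A43, SLC35A1 and SLC30A1 have both IP symbols far left of both inputs, while SLC25A6, SLC25A3 and SLC7A5 have both IP symbols to the right.

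Among the next 6 genes by level, 3 carry solutes through the plasma membrane. SLC30A1, which exports zinc from the cell, stood at 13.8 FPKM in the input of vehicle cells and 3.79 in their IP, then at 7.52 and 1.85 in those of lactate cells. SLC4A7, which brings bicarbonate into the cell with sodium, had 13.5, 19.3, 13.8 and 9.84 FPKM. SLC1A5, the main glutamine exchanger of many tumour cells, had 10.5, 18.6, 4.35 and 8.20. As deposited FPKM, the 2 inputs of SLC4A7 were nearly alike, while those of SLC1A5 were far apart. The other three are intracellular carriers: SLC25A6, a further ADP/ATP translocase, at 9.13, 33.8, 7.66 and 18.5 FPKM, SLC25A43, a mitochondrial carrier, at 8.41, 1.29, 7.28 and 1.16, and SLC35A1, the CMP-sialic acid carrier of the Golgi, at 7.77, 2.14, 6.06 and 1.06. Transport classes follow the family number of each gene, so a class need not match where or how each member acts. By class, the 16 mitochondrial carriers (all SLC25) made up 36.7% of the summed FPKM of the vehicle input. The 9 carriers of amino acids and peptides made up 16.7% and the 14 carriers of zinc and other metals 13.7%. The 7 carriers of sodium, protons, chloride and bicarbonate made up 12.5%. SLC2A1, the glucose carrier GLUT1, stood at only 1.33 FPKM in the vehicle input and 0.649 in the lactate input, and SLC2A3 at 0.0467 and 0.0884, under the minimum.

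The first comparison asks how transporter RNA differed between cells given sodium lactate for 24 h and vehicle cells. The vehicle was ddH2O, so lactate cannot be told apart from the sodium or the osmotic load given with it. On the scale log2(FPKM + 1), lactate input over vehicle input and relative to the median gene, 0 of the 68 genes were 2-fold higher and 0 were 2-fold lower. Over the background, 0.144% were 2-fold higher and 0.144% 2-fold lower. The 68 values ran from -0.68 to 0.58 with a median of 0.10, against 0 for the background by construction. In bulk libraries, less RNA per cell and fewer cells with the transcript cannot be told apart.

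Counting error allows a finer look, on the log2 ratio of reads without a pseudocount. The 95% interval for counting error lay wholly above the median gene for 17 of the 68, where the background share was 20.8%, and wholly below it for 14, where the background share was 21.0%. It took in the median gene for 37. The number of genes apart from the median is thus near that of the background. These intervals hold counting error of 1 library per group and nothing of the spread between cultures.

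SLC20A1, which imports phosphate, was highest of the 68 in this comparison on the FPKM + 1 scale. On the read scale SLC2A13 at 0.81 and SLC25A16, a mitochondrial carrier, at 0.80 were higher, and both had passed the minimum in the lactate input alone. It stood at 4.39 FPKM in the vehicle input and 4.98 in the lactate input, 0.58 above the median gene, with a log2 read ratio of 0.77 (0.55 to 0.99). SLC2A13, a proton-coupled carrier of myo-inositol, went from 0.889 to 1.04 FPKM between the inputs and lay 0.53 above. Its small level and the way it was chosen limit that value. SLC39A6, a zinc importer, went from 5.58 to 6.07 FPKM and lay 0.53 above. SLC4A7 lay 0.45 above, with a log2 read ratio of 0.61 (0.52 to 0.71). SLC41A2, a magnesium carrier, lay 0.38 above, and so did SLC4A11, a proton-conducting relative of SLC4A7.

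The pair of lowest genes on the FPKM + 1 scale were glutamine carriers. On the read scale SLC66A1 at -1.34, SLC35A4 at -1.15 and SLC25A4 at -0.89 were lower than both. Each of these had passed the minimum in the vehicle input alone. SLC49A4 at -0.59, SLC35A5 at -0.57 and SLC3A2 at -0.50, which passed in both inputs, were lower than SLC38A1 at -0.42 (-0.49 to -0.34). So were SLC48A1 at -0.66, SLC39A14 at -0.61, SLC1A4 at -0.56, SLC25A17 at -0.47 and SLC2A1 at -0.45. These, too, had passed in the vehicle input alone. SLC1A5 went from 10.5 FPKM in the vehicle input to 4.35 in the lactate input, at -0.68, with a log2 read ratio of -0.69 (-0.95 to -0.44). SLC38A1 went from 32.3 to 16.1 FPKM, at -0.53, and SLC3A2, the heavy chain that brings several amino acid exchangers to the cell surface, from 4.62 to 2.18, at -0.39. SLC7A5, the light chain LAT1 that pairs with SLC3A2, stood at 4.66 and 3.14 FPKM, only -0.03 from the median gene. The log2 read ratio of SLC7A5 exceeded that of SLC3A2 by 0.51 (0.15 to 0.88) in the inputs, so their values were apart beyond counting error. SLC7A1, which imports arginine and lysine, lay at 0.02. Of the 9 amino acid and peptide carriers, 5 lay under the median gene.

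SLC66A1, which exports basic amino acids from lysosomes, had 66 reads in the vehicle input and 11 in the lactate input. It lay at -0.38 on the FPKM + 1 scale and at -1.34 (-2.41 to -0.41) on the read scale, which shows how far the added 1 FPKM shrinks the ratio of a low gene. It had passed the minimum in the vehicle input alone, so the rule itself favoured a low ratio. The other low genes were SLC35A5, a carrier of the Golgi family, at -0.41, SLC25A5 at -0.40, SLC30A1 at -0.37 and SLC49A4, a lysosomal carrier, at -0.32. Left uncentred, the median of the 68 in this comparison was -0.33 in place of 0.10, because the median background gene itself lay at -0.43.

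**Figure D2:**
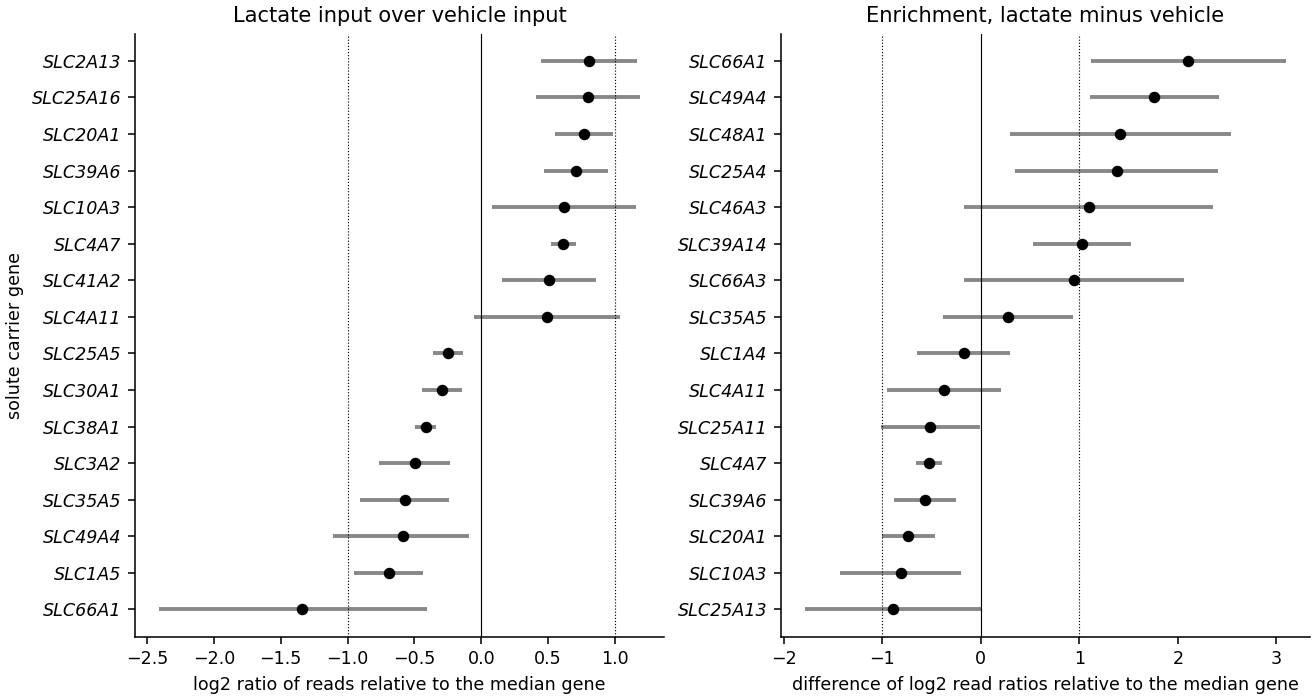
Points are log2 read ratios relative to the median gene and grey bars their 95% intervals for counting error only, for the genes at either end of 2 comparisons. On the left (lactate input over vehicle input) SLC1A5 lies at -0.69 and SLC20A1 at 0.77; on the right (IP over input in lactate cells minus the same in vehicle cells) the interval of SLC49A4 starts at 1.11 and that of SLC66A1, which passed the minimum in the vehicle input alone, at 1.12.

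The second comparison asks which transporter RNAs were over- or under-represented in the NSUN2 IP of vehicle cells relative to their own input. Of the 68 genes, 18 were 2-fold higher than the median gene (26.5% of them), where 19.8% of the background was, and 8 were 2-fold lower (11.8%), where 19.5% of the background was. The median of the 68 was 0.14, with values from -2.03 to 2.14. The counts of genes 2-fold apart depend on the added FPKM: with 0.1 in place of 1 there were 15 lower, and with 5 there were 7 higher and 2 lower. Background shares at those settings are not given here, so whether the 68 had fewer low genes than the background there is not shown. Because input levels chose the genes, a carrier high in an IP and low in both inputs could not enter. Of the 171 solute carriers under the minimum, 32 reached 1 FPKM in an IP, the highest in the vehicle IP being SLC66A2 with 0.337 FPKM in the vehicle input and 5.84 in the vehicle IP.

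The third comparison is the same for lactate cells. There, 18 genes were 2-fold higher (26.5%), where the background had 16.1%, and 4 were 2-fold lower (5.88%), where the background also had 16.1%. The median was 0.19 and the range -1.63 to 2.11. Without centring, 12 genes were 2-fold higher in place of 18 and 10 were 2-fold lower in place of 4, since the median background gene lay at -0.31. The 2 enrichments come from separate libraries. Across the 68 genes their Spearman correlation was 0.91, and across the 5562 background genes 0.92, as a description over genes that share the same 4 libraries and depths. In both conditions 15 genes were 2-fold higher, where 13.8% of the background was. Another 4 were 2-fold lower in both (5.88%), where the background again had 13.8%. On the FPKM + 1 scale these were SLC25A43, SLC30A1, SLC35A1 and SLC44A1, a choline carrier. On the read scale SLC25A46, at -3.62 in vehicle and -3.16 in lactate cells, and SLC19A2, at -2.83 and -3.37, were lower than all 4. The count of low genes depends on the added FPKM: with 0.1 in place of 1, 12 were 2-fold lower in lactate cells. The background share at that setting is not given here, so fewer low genes than in the background are not shown there. Opposite signs in the 2 conditions were seen for 9 genes, where the background had 12.5%.

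**Figure D3:**
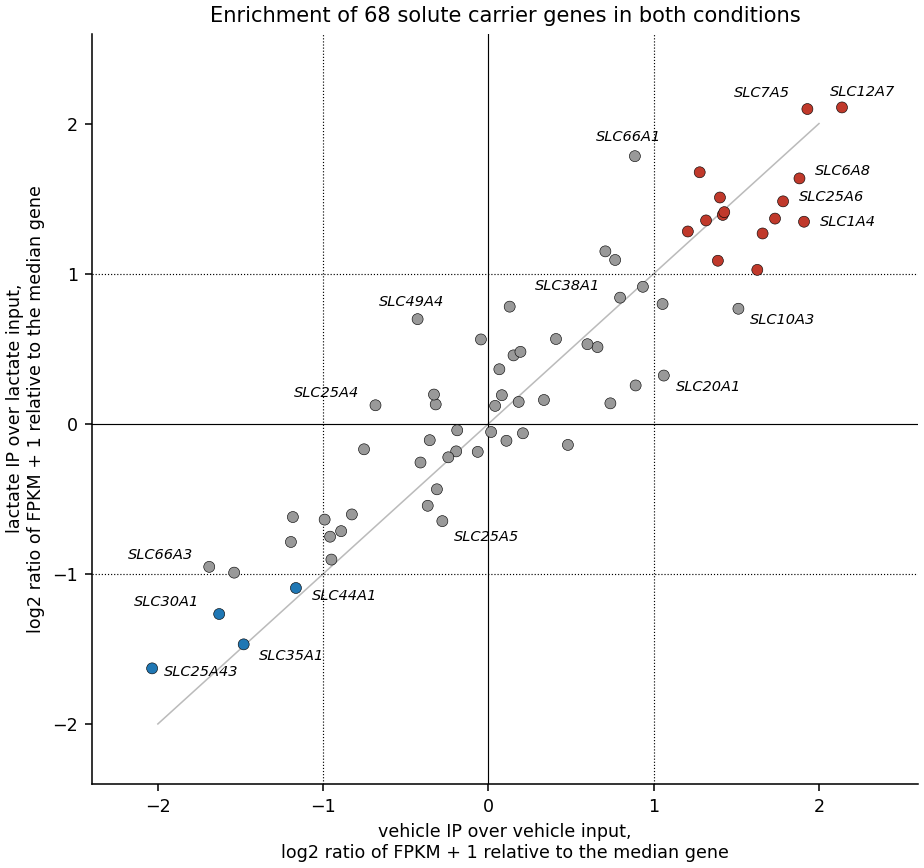
IP over input for each of the 68 genes as the log2 ratio of FPKM + 1 relative to the median gene, vehicle cells on the x axis and lactate cells on the y axis. Dotted lines mark 2-fold, red points the 15 genes 2-fold higher in both conditions and blue points the 4 genes 2-fold lower in both. SLC49A4 lies left of 0 and above 0.

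Of 9 carriers of amino acids and peptides, 8 lay above the median gene in vehicle cells and 8 in lactate cells, with medians of 0.80 and 1.09, and both counts stayed at 8 without centring and with either other pseudocount. In vehicle cells 4 of the 9 were 2-fold higher, where the background had 19.8%, and in lactate cells 5, where it had 16.1%. None was 2-fold lower in vehicle or lactate cells, where the background had 19.5% and 16.1%. SLC7A5 had 4.66 FPKM in the vehicle input and 20.5 in the vehicle IP, and 3.14 and 13.3 in lactate cells. Both IPs thus stood above both inputs, at 1.93 in vehicle and 2.10 in lactate cells. SLC1A4, which exchanges alanine, serine and cysteine, had 1.59 and 8.73 FPKM in vehicle cells and 0.722 and 2.53 in lactate cells, at 1.91 and 1.35. SLC6A8, the creatine carrier, had 1.01 and 6.38, then 0.801 and 3.51, at 1.88 and 1.63. SLC7A1 had 3.14 and 12.8, then 2.13 and 5.51, at 1.73 and 1.37.

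The glutamine carriers were less enriched than those 4. SLC1A5 lay at 0.77 in vehicle and 1.09 in lactate cells, and SLC38A1 at 0.80 and 0.84. SLC36A4, an amino acid carrier, was the exception on the low side, with 4.89 FPKM in the vehicle input and 1.96 in the vehicle IP, at -0.99, and -0.64 in lactate cells. SLC3A2 had 4.62 and 5.24 FPKM in vehicle cells and 2.18 and 2.52 in lactate cells, input first, so each IP stood near its input, at 0.15 and 0.46. The 2 chains of the same heterodimer therefore differed: the log2 read ratio of SLC7A5 was above that of SLC3A2 by 1.96 (1.72 to 2.20) in vehicle cells and by 1.87 (1.50 to 2.25) in lactate cells. This pair, and the other pairs below, were picked after their values were seen.

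The mitochondrial carriers, here the SLC25 genes as a whole, were split. Of 16 genes, 10 lay above and 6 below the median gene in vehicle cells, and in lactate cells the counts were again 10 and 6. In vehicle cells 6 were 2-fold higher and 2 lower, where the background had 19.8% and 19.5%. In lactate cells 6 were 2-fold higher and 1 lower, where the background had 16.1% each way. Without centring 7 of the 16 lay above 0 in lactate cells. The 6 high genes in vehicle cells were SLC25A6 (1.78), the oxoglutarate and malate exchanger SLC25A11 (1.63), the iron importer SLC25A37 (1.43), the phosphate carrier SLC25A3 (1.42), the citrate carrier SLC25A1 (1.28) and the glutathione carrier SLC25A39 (1.21). All 6 were 2-fold higher in lactate cells too, at 1.48, 1.03, 1.41, 1.39, 1.68 and 1.28.

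The ADP/ATP translocases differed from each other. SLC25A6 had 9.13 FPKM in the vehicle input and 33.8 in the vehicle IP, while SLC25A5 went from 87.7 to 72.0 and SLC25A4, the form of heart and muscle, from 1.30 to 0.427. Relative to the median gene they lay at 1.78, -0.28 and -0.68. The read ratio of SLC25A6 was above that of SLC25A5 by 2.17 on the log2 scale (1.95 to 2.40) in vehicle cells and 2.26 (1.94 to 2.58) in lactate cells. A pseudogene described as one of SLC25A6 had 0 and 11 reads in the input and IP of vehicle cells and 1 and 5 in those of lactate cells, beside 250, 715, 133 and 437 for the gene, so reads of such copies are few where they were counted apart. How reads with several matches were counted is not known here, and values of these 3 genes are uncertain to that extent.

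SLC25A43 was the lowest of the 68 genes in both conditions on the FPKM + 1 scale. It had 421 reads in the vehicle input and 50 in the vehicle IP, and 231 and 50 in lactate cells. On the FPKM + 1 scale it lay at -2.03 and -1.63, and on the read scale at -2.70 (-3.16 to -2.28) and -2.14 (-2.61 to -1.70). SLC25A46, an outer membrane protein of mitochondrial shape and fusion, had 2.50 FPKM in the vehicle input and 0.204 in the vehicle IP. It lay at -1.54 in vehicle and -0.99 in lactate cells, with 23 and 18 reads in the IPs. On the read scale SLC25A46 was lower than SLC25A43, at -3.62 (-4.29 to -3.01) and -3.16 (-3.95 to -2.45). In vehicle cells SLC66A3 at -2.97 and SLC19A2 at -2.83 were lower than SLC25A43 too. In lactate cells so were SLC19A2 at -3.37, SLC41A2 at -2.92 and SLC2A13 at -2.55, the last of which had passed in the lactate input alone.

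Among ion carriers SLC12A7, a potassium and chloride cotransporter, was the highest of all 68 genes in both conditions on the FPKM + 1 scale; on the read scale SLC66A1, at 3.44, was above it in lactate cells. It stood at 1.55 FPKM in the input of vehicle cells and 10.2 in their IP and at 1.09 and 6.26 in lactate cells, 2.14 and 2.11 above the median gene. SLC12A2, the sodium, potassium and chloride cotransporter of the same family, stood at 4.11, 3.87, 2.72 and 1.64 FPKM, at -0.06 and -0.19. The 2 cotransporters differed by 2.80 (2.52 to 3.09) on the log2 read scale in vehicle cells and by 3.26 (2.84 to 3.68) in lactate cells. SLC4A11 and SLC9A7, a sodium and proton exchanger of the Golgi, were 2-fold higher in both conditions, at 1.66 and 1.27 for the former and 1.40 and 1.51 for the latter. SLC4A7 lay at 0.48 and -0.14, and SLC26A2 at 0.21 and -0.06. Of the 7 genes, 5 were above the median gene in vehicle cells and 3 in lactate cells.

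Zinc carriers separated by family. Most SLC30 proteins move zinc out of the cytosol, into the medium or into organelles, and the SLC39 proteins move it into the cytosol. The genes were grouped by family alone, and the direction of transport of each member was not looked at. All 6 SLC30 genes lay below the median gene in vehicle cells, from -1.63 to -0.19, and all 6 in lactate cells, from -1.27 to -0.04. With a pseudocount of 5, 1 of the 6 lay above it in lactate cells. Of 5 SLC39 genes, 4 lay above it in vehicle cells, with SLC39A14 at -0.05, and all 5 in lactate cells, from 0.14 to 0.91. Without centring only 2 of the 5 lay above 0 in lactate cells. SLC30A1 had 13.8 FPKM and 3.79 FPKM in the input and IP of vehicle cells, whereas SLC39A6 had 5.58 and 9.95. Only SLC30A1 passed 2-fold in the whole metal class of 14 genes, on the low side in both conditions. The background had 19.8% higher and 19.5% lower in vehicle cells, and 16.1% each way in lactate cells. SLC30A5, which loads zinc into the early secretory pathway, lay at -0.83, and SLC39A11 at 0.93. The split was seen after the values were known and has no test.

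In the Golgi class, SLC35A1, SLC35A3, SLC35A5 and the acetyl-CoA carrier SLC33A1 lay below the median gene in both conditions. SLC35A2, which carries UDP-galactose, and SLC35A4 lay above it. SLC35A4 had 1.18 FPKM in the vehicle input and 4.43 in the vehicle IP, and 0.355 and 1.80 in lactate cells, at 1.32 and 1.35. SLC35A1 had 7.77 and 2.14, then 6.06 and 1.06, at -1.48 and -1.47. The class median was -0.92 in vehicle and -0.67 in lactate cells, the lowest of the 10 classes in both on the FPKM + 1 scale. It covers only subfamily A of SLC35 and SLC33A1, since the symbol pattern passes over subfamilies B to G. Of those relatives, some were higher in the vehicle IP than in the vehicle input, as SLC35E1 (2.30 FPKM in the input, 9.63 in the IP). Others were lower, as SLC35F2 (38.4 in the input, 24.6 in the IP).

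Carriers of vitamins, nucleosides, choline and haem had 2 of 6 genes above the median gene in vehicle cells and 3 of 6 in lactate cells. The thiamine carrier SLC19A2 had 1.91 FPKM in the vehicle input and 0.269 in the vehicle IP, with 16 reads in the latter, and lay at -1.20. SLC44A1 had 5.78 and 2.02 FPKM, at -1.16. The nucleoside carrier SLC29A1 lay at 0.66 and 0.51. Among sugar carriers SLC2A1 had 1.33 and 2.80 FPKM in the input and IP of vehicle cells and 0.649 and 1.95 in lactate cells, at 0.71 and 1.15. SLC50A1, with a far higher level, lay at 0.04 and 0.12. Among single genes of other classes, SLC10A3 at 1.51 and SLC20A1 at 1.06 were 2-fold higher in vehicle cells. SLC66A3 was 2-fold lower there at -1.69, with 15 reads in each IP.

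**Figure D4:**
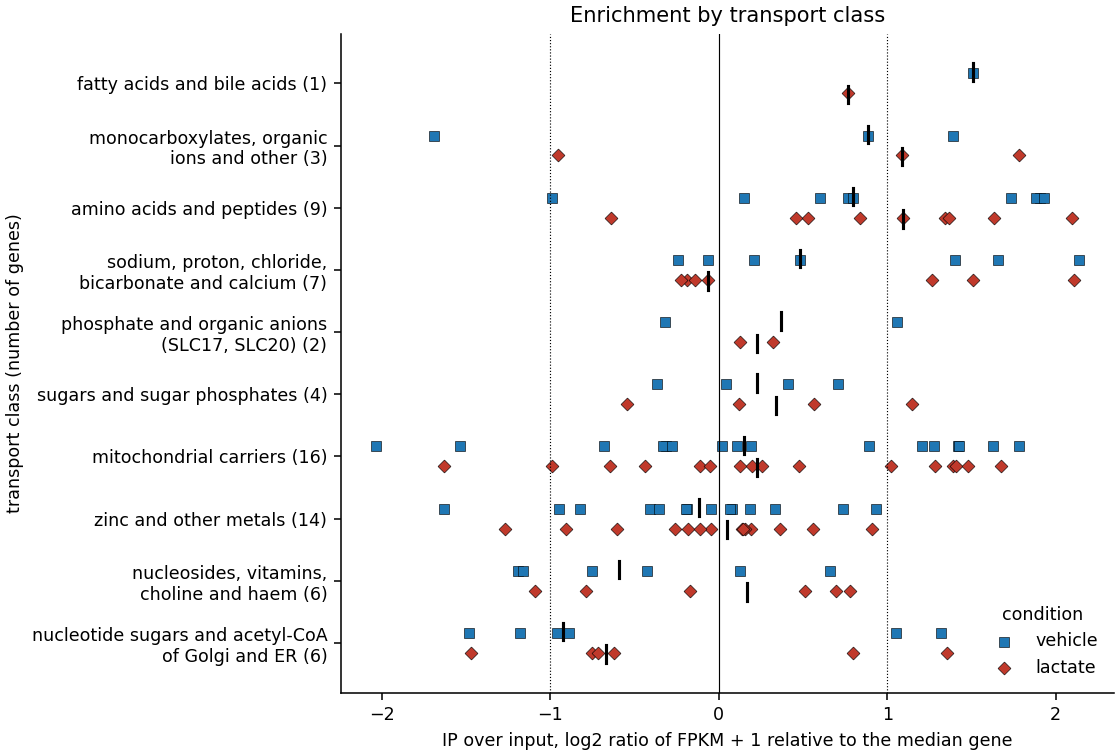
IP over input by transport class, each symbol a gene (blue squares vehicle, red diamonds lactate), as the log2 ratio of FPKM + 1 relative to the median gene; black ticks are class medians and dotted lines 2-fold. Amino acid and peptide carriers have 8 of 9 symbols right of 0 in each condition, and the Golgi class at the bottom has 4 of 6 left of 0.

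The fourth comparison asks how the IP of lactate cells differed from that of vehicle cells gene by gene once each was set against its own input. Of the 68 genes, 1 had an enrichment 2-fold higher in lactate cells, where 1.62% of the background did, and 0 were 2-fold lower, where 1.11% of the background was. By the counting interval 16 genes lay above the median gene, where the background share was 21.0%, and 10 below, where it was 22.6%. The interval took in the median gene for 42. The median of the 68 was 0.07. In this comparison too the solute carriers were near the background or below it.

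SLC49A4 was the gene past 2-fold on the FPKM + 1 scale. It had 2.61 FPKM in the input of vehicle cells and 1.68 in their IP, against 1.16 and 1.82 in lactate cells. The IP was thus below the input in vehicle cells and above it in lactate cells, and the enrichments of -0.43 and 0.70 differed by 1.13. Read counts behind it were 153, 76, 43 and 92, and the difference on the read scale was 1.76 (1.11 to 2.42). Without centring it was no longer past 2-fold. SLC66A1 was next at 0.90, with 66, 125, 11 and 114 reads, and its difference on the read scale was 2.11 (1.12 to 3.10). SLC25A4 lay at 0.81, with 110, 28, 25 and 21 reads. These 3 genes have in common few reads in the lactate input. SLC66A1 and SLC25A4 had passed the minimum in the vehicle input alone, so the rule favoured a high value for them here; SLC49A4 passed in both inputs.

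Several low genes were high in the lactate input. SLC20A1 had 10.2 FPKM in the vehicle IP and 5.03 in the lactate IP. Its enrichment went from 1.06 to 0.32, a difference of -0.73, and on the read scale the difference was -0.74 (-1.01 to -0.46). SLC4A7 went from 0.48 to -0.14, a difference of -0.61, and SLC39A6 from 0.74 to 0.14, a difference of -0.59. SLC10A3 had the lowest value on the FPKM + 1 scale, -0.74. The ratio of the inputs enters this comparison with a minus sign, so the 2 comparisons share the input libraries and are not separate support. SLC2A13 lay at -0.17 on the FPKM + 1 scale and at -1.64 (-2.45 to -0.82) on the read scale, with 19 reads in the lactate IP.

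Lactate IP over vehicle IP, the fifth comparison, had 0 genes 2-fold higher, where 0.863% of the background was, and 0 lower, where 1.29% was. Values ran from -0.76 for SLC25A5 to 0.83 for SLC17A5, which exports sialic acid from lysosomes, with a median of 0.14. SLC25A5 had 72.0 FPKM in the vehicle IP and 24.8 in the lactate IP, and SLC17A5 had 1.79 and 1.97. SLC1A4, at 8.73 and 2.53, lay at -0.72, and SLC38A1, at 56.7 and 23.7, at -0.48. Without centring the median of the 68 was -0.60 and 11 genes were 2-fold lower, because the median background gene lay at -0.74.

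The authors' deposited peak lists mark stretches where the IP exceeded its input, called separately for each condition. In their vehicle list 62 of the 68 genes had at least 1 peak, where 87.3% of the background did, and in their lactate list 57 had, where 75.5% did. Restricted to exon or UTR peaks with q under 0.01 and a fold of at least 2, the deposited vehicle list held peaks in 42 genes (61.8%), where the background had 62.9%, and the lactate list in 37 (54.4%), where the background had 41.6%. SLC25A5, SLC25A4, SLC30A1 and SLC35A1 had no peak in either deposited list. By position, 53.8% of the 91 restricted peaks of the deposited vehicle list lay in the 3′ UTR, against 36.0% in the background. In the lactate list of the authors it was 71.7% of 60 peaks, against 43.3%. Coding or other exons took 45.1% and 28.3%, and 5′ UTRs 1.10% and 0, in the authors' vehicle and lactate lists.

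**Figure D5:**
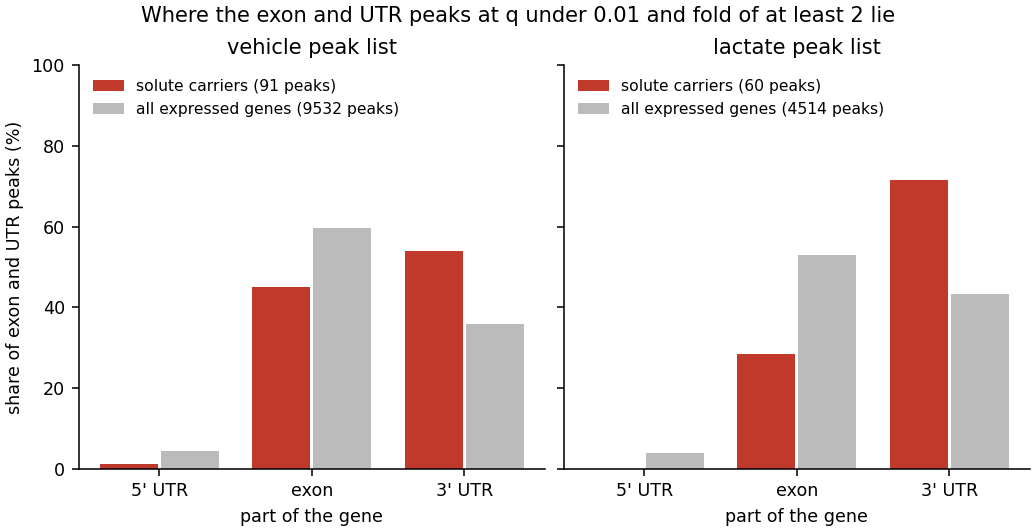
Share of exon and UTR peaks (q under 0.01, fold of at least 2) by part of the gene, in the authors' deposited vehicle and lactate lists, for the solute carriers (red, 91 and 60 peaks) and for all expressed protein-coding genes (grey, 9532 and 4514 peaks). The red bar for the 3′ UTR, 53.8% and 71.7%, is above the grey bar in each panel.

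Peaks and gene ratios come from the same libraries, so they are not independent. All 18 genes 2-fold higher in the vehicle IP had a restricted exon or UTR peak in the deposited vehicle list, as did 98.6% of such background genes. Of the 8 lower genes 1 had, SLC25A43, against 23.9% in the background. SLC7A5 had its main exon or UTR peak in the 3′ UTR at chr16:87829913-87830693, with a fold of 9.64 in the deposited vehicle list. In the authors' lactate list the peak at chr16:87829937-87830702 had a fold of 7.89. SLC12A7 had 3′ UTR peaks at chr5:1050287-1051115 with a fold of 10.8 in the deposited vehicle list and at chr5:1050306-1051189 with 6.57 in the lactate list. SLC7A1 had a deposited vehicle fold of 20.5 at chr13:29511893-29512642 and SLC1A4 of 13.6 at chr2:65023097-65023966, both in the 3′ UTR. The authors' lactate list gave 9.97 and 11.5 at overlapping peaks. SLC6A8 had an exon peak with a fold of 18.8 in the deposited vehicle list and 13.8 in the lactate list, and SLC9A7 had 23.6 and 12.4.

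Low genes could still hold intron peaks. SLC25A43 had 13 intron peaks in the deposited vehicle list and 11 in the lactate list, with folds of up to 10.5 and 14.6. SLC39A11, whose gene is long, had 42 and 27 in the deposited lists. Intron peaks made up 66.0% of the solute carrier peaks in the authors' vehicle list and 61.0% in their lactate list, against 59.1% and 60.5% in the background.

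For 2 genes a peak of the authors' lists lay at the start of transcription of a RefSeq window, over it in SLC4A7 and just inside the transcript in SLC39A10. Their bases around it are shown for that reason, 20 before and 10 from the start, with the bases inside the peak in capitals.
SLC39A10, vehicle list (chr2:195657206-195657235, plus strand): tggtgaatacacgatttggtgcagccGGGG
SLC4A7, lactate list (chr3:27484375-27484404, minus strand): CTCGGTCCGCCGGTTCGCTCAGTTCTAGCT

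The SLC39A10 peak of the authors' vehicle list runs over chr2:195657232-195657453 in the 5′ UTR with a fold of 6.66. The SLC4A7 peak of the authors' lactate list runs over chr3:27483894-27484438 with a fold of 3.84, annotated as exon, and takes in 54 bases before the RefSeq start. In the deposited vehicle list the SLC4A7 peak there ended at 27484277, with a fold of 6.21.

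The authors' deposited comparison of the IPs gave a log2 ratio M of lactate over vehicle density for 482 peaks in the 68 genes. Their median M was -0.37, and it was also -0.37 over 45838 peaks of the background in the deposited comparison. At peaks shared by both conditions the deposited median M was 0.04 for the solute carriers and -0.02 for the background. By count, 30.9% of the solute carrier peaks in that deposited table were shared, 51.5% were unique to vehicle and 17.6% unique to lactate, against 27.4%, 55.4% and 17.1%.

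Other transporters were set beside the solute carriers, and their genes named here were singled out after their values were seen. For the vehicle IP over input, 19.8% of the background was 2-fold higher and 19.5% lower. Of 24 ABC transporters listed, 6 reached the minimum, with a median of 0.25 in the vehicle IP, 0 genes 2-fold higher and 1 lower. Of 19 P-type ATPases, 10 reached it, with a median of 0.00 and 2 genes each way. Of 29 other carriers, among them the mitochondrial pyruvate carrier subunits MPC1 and MPC2, 15 reached it, with a median of -0.57, 3 higher and 6 lower. MPC1 had 14.2 FPKM in the vehicle input and 3.32 in the vehicle IP, at -1.81, and MPC2 had 9.89 and 3.28, at -1.34. SLCO1B3, an organic anion carrier, had 4.93 and 0.249 FPKM, at -2.25, lower than any of the 68 solute carriers on the FPKM + 1 scale.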

How the data were processed

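PANC-1 RNA was sequenced as 4 libraries in 4 groups, after SMART-Seq v4 amplification, per the labels' protocols. Per the submitters' processing notes, reads on GRCh38 passed through HISAT2 2.1.0 and fastp 0.20.1 among the tools named. For peaks the notes name MACS2 2.2.7.1, DiffBind, HOMER 4.11.1 and, beside them, bedtools 2.29.2. Not given in the sources used here are the read counter, its use of strand and the annotation. Gene values are FPKM as the authors deposited them. Per the file headers, the authors' peak lists give a fold (a ratio of IP over input), a p-value, the matching q-value and the −log10 of each. The authors' comparison of the IPs gives a normalized density (signal), the log2 ratio M and a P column. That deposited column was treated as a score and not used.

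Library totals and reads per gene were recovered from the FPKM values, and 99.99% of 72387 nonzero values gave whole reads (tolerance 1e-06). If all 4 counts of a gene share a divisor, the step cannot see it. Ratios are log2(FPKM + 1), centred on the median of 5562 protein-coding genes with FPKM of at least 1 in an input. The added 1 understates the change of low genes. Intervals are 95% exact conditional (Clopper-Pearson) on reads, or normal on log reads for a difference of ratios. The kit adds no molecular identifiers, so they cover counting error only. A library of 1 per group allows no test between groups. On simulated data the totals were recovered, with all reads of 97.1% of 24481 genes. For vehicle IP over vehicle input, 91 of 91 raised and 68 of 90 lowered 4-fold genes and 79 of 6875 unchanged genes were called. The 4 simulated libraries shared 1 profile but for the changed genes, with counting error alone and no shift in mitochondrial share. Changed genes were drawn from well counted genes of the vehicle input, so these rates are not shown for solute carriers with few reads. Computing used Python 3.11.15, pandas 2.3.3, numpy 2.4.6, scipy 1.17.1 and matplotlib 3.10.9.

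Named genes were the 10 highest in the vehicle input, the 8 highest and 8 lowest of each comparison with at least 20 reads, the highest gene of each of 10 transport classes, a list of well studied carriers and the genes nearest the minimum. A few genes that the rule names are not reported here. The solute carriers, the lists and this rule were chosen with earlier results of these data known. Alternatives tried were no centring, another centring set, pseudocounts of 0.1 and 5, other FPKM minimums, and stricter peaks. RefSeq promoter windows with several starts were all used for counts.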

Additional observations from a re-analysis of the deposited data

Results flagged for a closer look

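SLC49A4, a lysosomal carrier, lay on opposite sides of the median gene in the 2 conditions, at -0.43 for vehicle IP over vehicle input and at 0.70 for lactate IP over lactate input. The difference was not tested, since each condition has 1 pair of libraries. The lactate input held 43 reads of the gene, the fewest of its 4 libraries.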

How the results depend on the processing

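Depth limits low genes: 6 of the 68 had under 20 reads in the lactate IP. No paired analysis was possible because each group has 1 library, so leaving out a replicate was not possible either. Of the main counts and medians under the alternatives, 74 moved by less than the margin set for them, 35 moved by more and 4 reversed; the cause was not tested. Of values of single named genes, 347 moved by less and 155 by more. Background shares at the alternative settings are not given here, so the counts below are not set against the background. Without centring, the medians reversed to -0.33 (inputs), -0.12 (lactate IP over input), -0.60 (lactate IP over vehicle IP) and -0.25 (difference of enrichments), by the construction of that setting. The same setting gave 1 gene 2-fold lower between inputs, 10 in the lactate IP over input (with 12 higher) and 11 between IPs, and for the difference of enrichments 0 higher and 2 lower. A pseudocount of 0.1 gave 1 lower between inputs, 15 lower in the vehicle and 12 lower in the lactate IP over input, 3 higher between IPs, and 4 higher and 1 lower for the difference. A pseudocount of 5 gave 7 higher and 2 lower in the vehicle IP over input, 3 higher and 0 lower in the lactate IP over input, 1 lower between IPs and 0 higher for the difference. An FPKM minimum of 5 left 15 genes, with 7 higher, 2 lower and a median of 0.74 in the vehicle IP over input, 5 higher and 1 lower in the lactate IP over input and 0 higher for the difference. Of these, 12 had a peak in the authors' deposited vehicle list and 11 in their lactate list. With no minimum (239 genes) there were 29 higher in the vehicle and 10 lower in the lactate IP over input, 2 lower between IPs, and 0 higher and 2 lower for the difference. With the minimum in any library (100 genes) there were 15 lower in the vehicle and 10 lower in the lactate IP over input, 1 higher between IPs and 1 lower for the difference. In the authors' deposited comparison, the median M over the 254 peaks with a mean density above the median was -0.035.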

Other observations

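Carriers of the lysosomal membrane were looked at together after their values had been seen, so the list has no test. It held SLC15A4, SLC17A5, SLC36A4, SLC46A3, SLC48A1, SLC49A4 and SLC66A1. In lactate IP over vehicle IP all 7 lay above the median gene, from 0.26 to 0.83 with a median of 0.58, where the median of the 68 solute carriers was 0.14. Without centring 3 of the 7 lay above 0. In lactate enrichment minus vehicle enrichment 6 of the 7 lay above the median gene, also without centring and with pseudocounts of 0.1 and 5, and their median was 0.59. The counting interval lay above the median gene for 5 of the 7, where the background share was 21.0%. As the list was drawn up after those values were seen, that share is no yardstick for it. The list need not hold every lysosomal carrier among the 68. SLC48A1, which releases haem from lysosomes, had 1.04 FPKM in the input of vehicle cells and 1.23 in their IP and 0.437 and 0.992 in those of lactate cells, a difference of 0.66. SLC46A3 had 1.08, 0.233, 0.735 and 0.244 FPKM in that order, a difference of 0.59. SLC15A4, a carrier of histidine and peptides, was the exception at -0.06. Counts in the lactate input were low, with 11 reads for SLC66A1, 12 for SLC48A1, 31 for SLC46A3, 43 for SLC49A4, 69 for SLC15A4, 91 for SLC17A5 and 423 for SLC36A4. SLC66A1, SLC48A1 and SLC46A3 had passed the minimum in the vehicle input alone, which favours a high difference of enrichments. The part of those low counts in the differences was not tested.

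Several solute carriers under the input minimum were high in both IPs, and the 3 highest in the vehicle IP are given, chosen after their values were seen. SLC2A6, a lysosomal relative of the glucose carriers, had 0.418 FPKM in the input of vehicle cells and 5.01 in their IP and 0.558 and 3.13 in those of lactate cells. SLC25A10, the dicarboxylate carrier of mitochondria, had 0.390, 4.62, 0.410 and 3.89 FPKM, with 18, 165, 12 and 155 reads. SLC66A2 had 31, 415, 51 and 243 reads. They were left out by the rule on input levels, so the counts of high genes among the 68 leave out carriers of this kind.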
